A study of Mus musculus with 4 samples.

Results

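The transcripts described here are those of the haemoglobin chains, of Alas2 and of myoglobin (Mb) in soleus muscle of *mdx* mice. Members were selected on their measured level: all rows of the expected count table whose symbol begins with Hba- or Hbb-, plus Alas2 and Mb, with a summed count of 10 or more over the 4 libraries. There were 8 such rows among 24054 in the table, namely Hba-a1, Hba-a2, Hbb-b1, Hbb-b2, Hbb-bs, Hbb-bt, Alas2 and Mb. The member nearest above that minimum was Alas2, with a sum of 602 counts, and the 4 rows left below it, Hba-x, Hbb-bh1, Hbb-bh2 and Hbb-y, each had a sum of 0. These 4 are embryonic globins or little-used genes of the beta cluster.

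The muscles came from female *mdx* mice (C57BL/10ScSn-DMDmdx/J), whose dystrophin gene is mutated. Dosing into the femoral vein began at 8 weeks of age and was repeated monthly over a study of 12 months, at whose end the muscles were taken. Mice of the mCDC group received cardiosphere-derived cells grown from the heart of a C57BL/10ScSn/J mouse, and mice of the vehicle group received the same volume of culture medium. There were 2 soleus libraries per group, numbered 1 and 2, and nothing in the labels says whether they came from separate mice, so p-values measure only the spread between these libraries. Library totals ran from 22481391 to 27187425 expected counts. An expected count is RSEM's estimate of the reads of a gene and need not be whole, because a read that fits several transcripts is divided among them. Levels are given as CPM, the expected count relative to a library size that was adjusted by trimmed means of M-values (TMM). The labelled tissue was checked against its markers: Myh7, the slow myosin heavy chain of soleus fibers, had 46884 and 39234 CPM in mCDC replicates 1 and 2 and 47467 and 38237 CPM in vehicle replicates 1 and 2. Some genes of fast fibers were highest in mCDC replicate 1, where Myh4, the fast IIb myosin heavy chain, had 2096 CPM, against 47.5 CPM in mCDC replicate 2 and 163 and 411 CPM in the vehicle libraries. Pvalb, the calcium buffer of fast fibers, had 648 CPM there and 16.8, 161 and 109 CPM in the others. The methods used here do not say whether blood was cleared from the muscles.

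Haemoglobin of adult red blood cells is a tetramer of alpha and beta chains, each holding a haem group that binds oxygen. Mature red cells have no nucleus but keep globin messenger RNA for a time, and so globin transcripts enter the RNA of any tissue that holds blood. Alas2 is the first enzyme of haem synthesis in red cell precursors, while other tissues use Alas1 for that step. Myoglobin is the single-chain haem protein that stores oxygen inside muscle fibers and is abundant in slow, oxidative muscles such as the soleus.

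The alpha chains are encoded by a pair of copies on chromosome 11 of GRCm38 (mm10), Hba-a1 at chr11:32283511-32284465 and Hba-a2 at chr11:32296489-32297298, both on the plus strand with 3 exons. The beta chains come from a cluster on the minus strand of chromosome 7, with Hbb-bt at chr7:103812524-103813996 and Hbb-bs at chr7:103826534-103828096. Hbb-b1 and Hbb-b2, names of the beta genes of other mouse strains, were not matched in that annotation. Alas2 lies at chrX:150547375-150570638 and Mb at chr15:77015487-77050670. The copies are close to identical, and many 75-base reads fit more than one of them. Over 429 coding bases, Hba-a1 and Hba-a2 differed by 1 substitution, C381T, counted from the A of the start codon with the base of Hba-a1 first. Over 444 coding bases, Hbb-bs and Hbb-bt differed by 1 substitution, C417T, with the base of Hbb-bs first. Both fall on the third base of a codon and are synonymous. The stretches around them are shown because they are the coding bases by which these rows can be told apart, with the differing base in capitals:
Hba-a1: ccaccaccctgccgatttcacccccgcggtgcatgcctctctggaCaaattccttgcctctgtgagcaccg
Hba-a2: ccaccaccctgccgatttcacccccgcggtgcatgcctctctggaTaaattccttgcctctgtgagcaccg
Hbb-bs: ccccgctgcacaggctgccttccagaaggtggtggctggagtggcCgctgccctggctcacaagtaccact
Hbb-bt: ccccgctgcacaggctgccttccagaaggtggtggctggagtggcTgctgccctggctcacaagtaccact

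These stretches are GENCODE M21 transcript sequence of GRCm38, at chr11:32284298-32284368 and chr11:32297115-32297185 on the plus strand and chr7:103826667-103826737 and chr7:103812658-103812728 on the minus strand. Of the 480 words of 75 bases in the Hba-a2 transcript, 389, or 81.0%, also occur in that of Hba-a1, where they are 62.2% of 625 words. Of the 554 such words of Hbb-bs, 356, or 64.3%, also occur in Hbb-bt, where they are 56.6% of 629 words. These shares are of GENCODE M21 transcripts, whereas the reads were mapped to a UCSC transcript set whose sequences were not compared here. The division of reads showed in the counts. None of the 4 values of Hba-a1, Hba-a2, Hbb-b2, Hbb-bs and Hbb-bt was a whole number within 0.005, while all 4 values of Alas2 and of Mb were. Summed over Hba-a1 and Hba-a2, the count was whole in 4 of 4 libraries, and the beta sums lay within 0.01 of a whole number. Hbb-b2 and Hbb-bt held the same value as each other in 4 of 4 libraries, so they do not vary independently, and the beta sums count both rows. The sums over copies do not move with how reads were divided among them, and for that reason they are given first.

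Myoglobin was by far the most abundant of these transcripts. Mb had 6918 and 7649 CPM in mCDC replicates 1 and 2 and 6523 and 7908 CPM in vehicle replicates 1 and 2, between 0.659% and 0.826% of all counts of a library. The groups overlapped, with the lowest and the highest value both in vehicle muscles. The means were 7283 ± 517 CPM (SD, n = 2) with mCDCs and 7215 ± 980 CPM (SD, n = 2) with vehicle. The log2 fold change of mCDC over vehicle was 0.01 with a standard error of 0.21, and the adjusted p was 0.995 in edgeR's quasi-likelihood fit of 13652 genes.

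The alpha-globin sum was 248 and 258 CPM in mCDC replicates 1 and 2, and 227 and 400 CPM in vehicle replicates 1 and 2. The group means were 253 ± 6.78 CPM (SD, n = 2) with mCDCs and 314 ± 122 CPM (SD, n = 2) with vehicle, so that the means differed by less than the SD of the vehicle libraries. The 3 libraries other than vehicle replicate 2 lay close together, and vehicle replicate 2 was 1.55 times the highest of them. Its exact Poisson 95% interval, 393 to 408 CPM, lay clear of theirs, the highest of which ended at 265 CPM. Such intervals cover counting error only.

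The beta-globin sum had the same order. It was 187 and 192 CPM in mCDC replicates 1 and 2, and 160 and 309 CPM in vehicle replicates 1 and 2, with means of 189 ± 3.26 and 234 ± 106 CPM (SD, n = 2 each). Vehicle replicate 1 was the lowest library and vehicle replicate 2 the highest, as for the alpha sum. The log2 fold change was -0.31 for both chains, with standard errors of 0.24 (alpha) and 0.27 (beta). A fit that leaves out a library sets 2 libraries against 1, with the spread taken from the pair that remains and the single library assumed to vary alike, here and in all such values that follow. Without vehicle replicate 2 the signs turned, to 0.15 and 0.24, and without vehicle replicate 1 the values were -0.66 and -0.70. No p is given for the sums, and the smallest p that exact permutation allows for 2 libraries against 2 is 0.333.

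Alpha and beta counts kept a nearly constant ratio while their level varied. There were 1.33 and 1.35 alpha counts per beta count with mCDCs (replicates 1 and 2), against 1.42 and 1.30 with vehicle, a 1.10-fold range. Per kilobase of transcript, the alpha sum was 404 ± 10.8 CPM (SD, n = 2) with mCDCs and 501 ± 195 (SD, n = 2) with vehicle, and the beta sum 284 ± 4.90 and 352 ± 159 CPM (SD, n = 2 each). The beta length is the mean of Hbb-bs and Hbb-bt alone, since Hbb-b1 and Hbb-b2 were not matched, and Hbb-b1 held most of the beta counts. On the same per-kilobase scale, Mb lay between 5908 and 7163 CPM, 11.2 to 16.8 times the alpha sum and 15.4 to 24.6 times the beta sum of the same library. Alas2 lay between 2.13 and 4.66 CPM per kilobase. The order Mb, alpha, beta, Alas2 held in each of the 4 libraries.

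**Figure D1:**
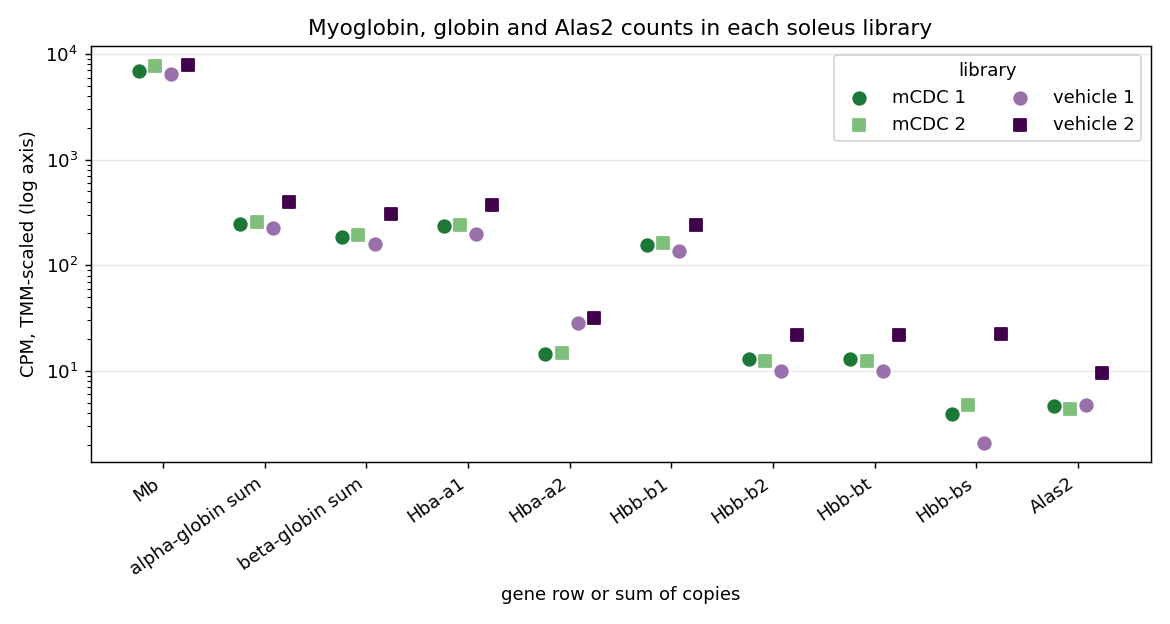
Level of each member row and of the sums over alpha and beta copies, in TMM-scaled CPM on a log axis, with 1 point per soleus library (2 mCDC, green; 2 vehicle, purple). Vehicle replicate 2 is the highest library in every column, by 1.55 times for the alpha sum and by 1.03 times for Mb, and only for Hba-a2 and Alas2 do both mCDC points lie below both vehicle points.

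Alas2 followed the globins in vehicle replicate 2. It had 4.62 and 4.34 CPM in mCDC replicates 1 and 2, and 4.73 and 9.50 CPM in vehicle replicates 1 and 2. Both mCDC libraries lay below both vehicle libraries, but vehicle replicate 1 exceeded mCDC replicate 1 by less than the counting error, with 124 counts against 122. The group means were 4.48 ± 0.20 and 7.11 ± 3.37 CPM (SD, n = 2 each), giving -0.67 ± 0.33 (SE) on the log2 scale, and edgeR's quasi-likelihood model put the adjusted p at 0.726. The log2 difference was -0.079 without vehicle replicate 2, and -1.08 and called lower without vehicle replicate 1, where vehicle replicate 2 alone stood for its group. Per 1000 alpha-globin counts Alas2 had 18.6 and 16.8 counts with mCDCs, against 20.8 and 23.7 with vehicle. These ratios rest on 122, 95, 124 and 261 Alas2 counts, and those of mCDC replicate 1 and vehicle replicate 1 lay within counting error of each other.

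Of the 8 rows, 1 was called lower in mCDC muscles and none higher, where a call needs an unadjusted p under 0.05 and more than a 1.5-fold difference. Of all 13652 genes tested, 1.26% were called higher and 2.74% lower. None of the 8 rows had an adjusted p under 0.05 with edgeR's quasi-likelihood test, where 1 had an unadjusted p under 0.05, and 1 had with each of DESeq2, edgeR's exact test and its likelihood ratio test. Both mCDC libraries lay below both vehicle libraries in 2 of 8 rows, Hba-a2 and Alas2, beside 19.4% of all genes tested. Vehicle replicate 2 was the highest library in 8 of 8 rows, beside 29.4% of all genes, and exceeded the highest other library by over 1.5 times in 5 of 8, beside 4.53%. The rows are not independent of each other, since alpha copies share reads, as do beta copies, and Hbb-b2 and Hbb-bt are the same values.

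The row called was Hba-a2, the minor alpha copy in these counts. Hba-a2 had 14.5 and 14.8 CPM in mCDC replicates 1 and 2, and 28.6 and 31.7 CPM in vehicle replicates 1 and 2. Here the vehicle libraries were alike and the groups did not overlap. On the log2 scale the difference was -1.04 ± 0.15 (SE), and the adjusted p was 0.200 in edgeR's quasi-likelihood model, where this row ranked 9 of all genes by p. Its twin Hba-a1, which held most alpha counts, had 234 and 243 CPM in mCDC replicates 1 and 2 and 199 and 369 CPM in vehicle replicates 1 and 2, or -0.25 ± 0.25 (SE) on the log2 scale, with an adjusted p of 0.830 in the same edgeR model. With each library left out in turn, the log2 fold change of Hba-a2 ran from -1.11 to -0.97 and met the call threshold each time, with one group then a single library, while that of Hba-a1 ran from -0.62 to 0.26. The adjusted p of Hba-a2 was 0.00157 with DESeq2, and ran from 7.42e-05 with edgeR's likelihood ratio test to 0.536 with no filter on low counts.

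As a share of the alpha counts, Hba-a2 took 5.86% (95% exact binomial interval 5.30% to 6.45%) in mCDC replicate 1 and 5.73% (5.13% to 6.36%) in mCDC replicate 2. It took 12.6% (11.7% to 13.4%) in vehicle replicate 1 and 7.92% (7.42% to 8.44%) in vehicle replicate 2. The vehicle libraries thus had similar Hba-a2 levels at different shares, vehicle replicate 1 through a higher share of few alpha counts and vehicle replicate 2 through a lower share of many. Whether the share reflects transcription of the copies or the division of reads between them was not tested.

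The beta copies divided in another way. Hbb-b1 held between 78.6% and 86.3% of the beta counts, with 157 and 162 CPM in mCDC replicates 1 and 2, and 138 and 243 CPM in vehicle replicates 1 and 2. Hbb-b2 and Hbb-bt each held between 6.21% and 7.14%, with 13.0, 12.4, 9.91 and 22.1 CPM in the same order of libraries. Their log2 fold changes were -0.25 for Hbb-b1 (standard error 0.24) and -0.33 for the other pair (standard error 0.33), and edgeR's quasi-likelihood model gave adjusted p of 0.820 and 0.825. All 3 turned positive without vehicle replicate 2, at 0.21 and 0.36.

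Hbb-bs was the most variable row. It had 3.92 and 4.75 CPM in mCDC replicates 1 and 2, and 2.07 and 22.1 CPM in vehicle replicates 1 and 2, so that both the lowest and the highest value came from vehicle muscles. Its share of the beta counts was 2.09% (95% exact binomial interval 1.71% to 2.53%) and 2.48% (2.03% to 2.99%) with mCDCs (replicates 1 and 2). With vehicle it was 1.30% (0.977% to 1.69%) and 7.15% (6.61% to 7.72%). The difference was -1.49 ± 0.82 (SE) on the log2 scale, with an adjusted p of 0.741 in edgeR's quasi-likelihood model. With one group reduced to a single library, it was called higher without vehicle replicate 2, at 1.06, and lower without vehicle replicate 1, at -2.35, and without mCDC replicate 2, at -1.63. The binomial intervals treat divided reads as counted, so they do not hold the error of the division.

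**Figure D2:**
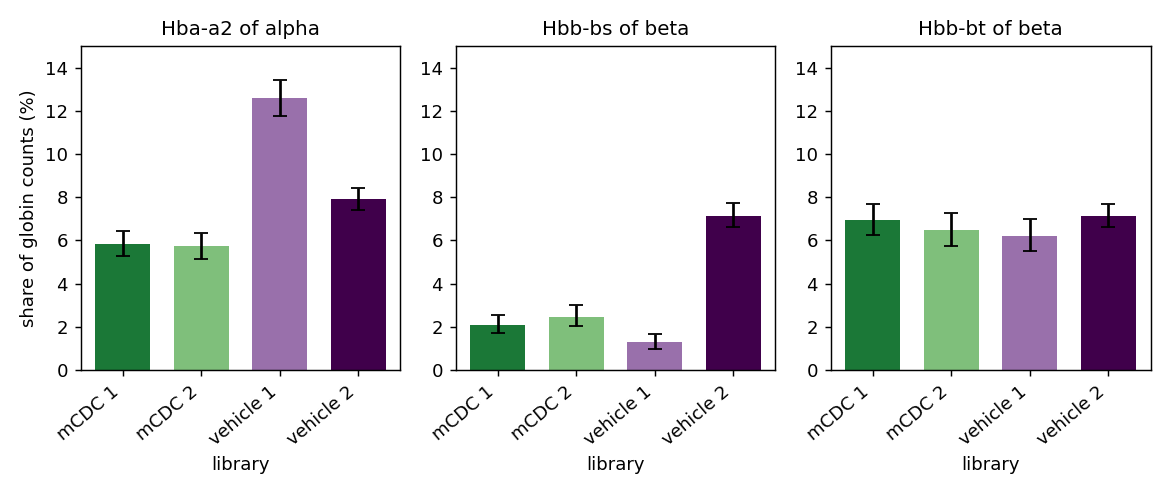
Share of the alpha-globin counts held by Hba-a2 and of the beta-globin counts held by Hbb-bs and Hbb-bt in each soleus library, in percent, with exact binomial 95% intervals for counting error. Hba-a2 is highest in vehicle replicate 1 at 12.6%, Hbb-bs is highest in vehicle replicate 2 at 7.15%, and Hbb-bt lies between 6.21% and 7.14% in all 4.

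**Figure D3:**
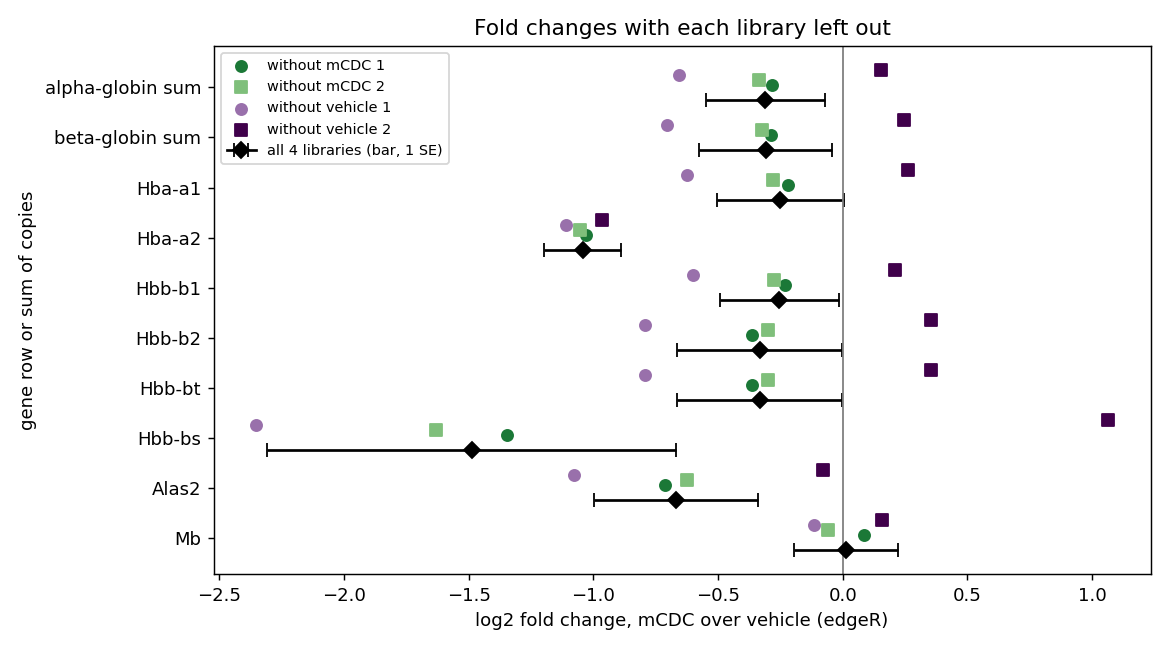
Log2 fold change of mCDC over vehicle from edgeR for each row or sum, with all 4 libraries (black diamond, bar of 1 standard error) and with each library left out (colored points, named by the library removed). Only Hba-a2 and Alas2 stay below 0 throughout, Hba-a2 between -1.11 and -0.97 and Alas2 between -1.08 and -0.079, while without vehicle replicate 2 the alpha and beta sums stand at 0.15 and 0.24.

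The sequences before the start sites of Hba-a1, Hbb-bs and Alas2 are shown as one alpha gene, one beta gene and the erythroid enzyme of haem synthesis, the red cell members described above. Each is the 250 bases before the RefSeq start site in GRCm38.p6, at chr11:32283422-32283671 (plus strand), chr7:103827929-103828178 (minus strand) and chrX:150547167-150547416 (plus strand). Capitals mark matches on either strand to GATAA, which GATA factors bind, to CACCC, which is bound by the erythroid factor Klf1 and its relatives, and to the CCAAT and TATAA boxes:
Hba-a1: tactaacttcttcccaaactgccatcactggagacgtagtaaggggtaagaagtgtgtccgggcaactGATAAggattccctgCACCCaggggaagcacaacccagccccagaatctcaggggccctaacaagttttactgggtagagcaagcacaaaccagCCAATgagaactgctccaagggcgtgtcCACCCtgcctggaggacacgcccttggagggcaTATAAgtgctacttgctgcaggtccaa
Hbb-bs: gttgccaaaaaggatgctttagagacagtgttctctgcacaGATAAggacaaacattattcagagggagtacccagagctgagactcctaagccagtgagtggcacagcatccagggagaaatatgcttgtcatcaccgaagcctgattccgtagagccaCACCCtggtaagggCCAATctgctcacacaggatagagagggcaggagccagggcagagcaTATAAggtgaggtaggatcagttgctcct
Alas2: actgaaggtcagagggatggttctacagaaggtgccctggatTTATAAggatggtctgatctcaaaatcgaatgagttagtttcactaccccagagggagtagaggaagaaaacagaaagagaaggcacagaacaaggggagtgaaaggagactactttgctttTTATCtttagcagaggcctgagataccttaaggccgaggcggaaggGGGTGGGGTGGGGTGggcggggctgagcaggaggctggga

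All 4 motifs were matched before Hba-a1 and Hbb-bs. In Hba-a1, GATAA began 182 bases before the start site, CCAAT 88 and TATAA 27, with CACCC at 167 and 60. In Hbb-bs the same motifs began at 209, 76, 29 and 90 bases. Alas2 had GATAA on the minus strand 86 bases before the start and a run of 3 CACCC matches on the minus strand between 40 and 30 bases, and the match to TATAA at 207 bases overlaps one on the other strand. In windows of this length before all 32851 RefSeq starts, 22.6% held GATAA, 52.0% CACCC, 33.8% CCAAT and 22.8% TATAA. The windows of Hba-a1 and Hba-a2 shared an unbroken run of 247 of 250 bases, while those of Hbb-bs and Hbb-bt shared none longer than 14. No match to GATAA or TATAA was found in the windows before the 3 RefSeq starts of Mb. A match to such short words is a description and not evidence of binding.

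Defining genes of red blood cells had few counts in these muscles. Slc4a1, the anion exchanger of the red cell membrane, had 0.19 and 0.27 CPM in mCDC replicates 1 and 2 and 0.31 and 0.69 CPM in vehicle replicates 1 and 2. Ahsp, the chaperone of free alpha chains, is not listed in the table under that symbol. Klf1 had 0.34 and 0.46 CPM with mCDCs and 0.69 and 0.73 CPM with vehicle, a log2 fold change of -0.84 that was not called. Fewer red cells in a muscle and less globin RNA per red cell cannot be told apart in bulk RNA.

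Of 23 tested genes on the erythroid list, 1 was called higher and 4 lower in mCDC muscles (2 in all with DESeq2), beside 1.26% and 2.74% of all genes tested, and the median log2 fold change was -0.10 beside -0.01 for all genes tested. The genes called lower were Tal1, Acp5, Sptbn1 and Aqp1, and the one called higher was Slc2a1. Tal1, a transcription factor of blood and endothelial cells, had 1.06 and 1.19 CPM with mCDCs and 1.41 and 3.35 CPM with vehicle. Aqp1, a water channel of red cells and capillaries, had 65.6 and 43.4 CPM with mCDCs and 68.3 and 153 CPM with vehicle. Sptbn1 had 94.9 and 86.1 CPM with mCDCs and 132 and 154 CPM with vehicle. Acp5 had 0.64 and 0.64 CPM with mCDCs and 1.14 and 1.38 CPM with vehicle. Without vehicle replicate 2, the median of the list was 0.01. The log2 fold changes were then -0.33 for Tal1, -0.33 for Aqp1, -0.54 for Sptbn1 and -0.83 for Acp5. Several of these genes are also used by muscle or vessels, and Ank1 and Sptb, spectrin-network genes, made up much of the summed level of the list, which lay between 1661 and 1693 CPM in all 4 libraries.

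The other steps of haem metabolism held no called gene with all 4 libraries. Of 15 other haem synthesis genes tested, 0 were called with edgeR's quasi-likelihood test, DESeq2, or edgeR's exact or likelihood ratio test, and 1 had an unadjusted p under 0.05 with the first of these. That one was Alas1, the housekeeping form of the enzyme, with 130 and 132 CPM in mCDC replicates 1 and 2 and 113 and 96.7 CPM in vehicle replicates 1 and 2, a log2 fold change of 0.32 with a standard error of 0.14, and its adjusted p was 0.713 in edgeR's quasi-likelihood model. Fech, which inserts iron into the ring, had a log2 fold change of 0.03. Of 10 haem breakdown and scavenging genes and 21 iron handling genes tested, 0 were called with any of these 4 tests, and 0 and 1 had an unadjusted p under 0.05. On the haem breakdown and scavenging list, 1 gene was called higher without vehicle replicate 1 and 1 lower without vehicle replicate 2. Hmox1, which opens the haem ring, had 4.24 and 4.02 CPM with mCDCs and 3.13 and 3.64 CPM with vehicle, and Tfrc, the transferrin receptor, had a log2 fold change of 0.22. Cygb, the cytoglobin of fibroblasts and other cells, had 24.8 and 29.1 CPM with mCDCs and 22.4 and 39.1 CPM with vehicle, again lowest and highest in the vehicle group.

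Endothelial markers were highest in the library in which the globins were highest. All 14 endothelial genes tested were highest in vehicle replicate 2, beside 29.4% of all genes tested. In 12 of them it exceeded the highest other library by over 1.5 times, beside 4.53% of all genes. Summed over that list, the level was 360 and 313 CPM in mCDC replicates 1 and 2, and 337 and 633 CPM in vehicle replicates 1 and 2. Pecam1, an adhesion molecule of endothelium, had 27.1, 22, 25.5 and 52.4 CPM in the same order. Flt1 and Vwf were called lower, and the median log2 fold change of the list was -0.53. With vehicle replicate 2 left out the median of the list was 0.08. With vehicle replicate 1 left out, so that vehicle replicate 2 alone stood for its group, it was -1.01.

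Pericyte and smooth muscle genes, of the vessel wall, summed to 408 and 423 CPM with mCDCs and to 364 and 419 CPM with vehicle. Vehicle replicate 2 was highest in 7 of 10 of them, beside 29.4% of all genes tested. Platelet and megakaryocyte genes summed to 15.3 and 14.0 CPM with mCDCs, against 15.7 and 15.5 CPM with vehicle, with 0 of 6 tested genes called, and Pf4, platelet factor 4, had 2.16, 1.92, 1.60 and 1.82 CPM. Neutrophil genes summed to between 6.35 and 7.78 CPM, and the defining pair S100a8 and S100a9 had 11 counts and 1 count over all libraries. The B cell list and the T and NK cell list summed to between 1.12 and 1.94 CPM in each library, with 21 counts of Cd79a and 3 of Cd3e in all, and 0 of their 3 tested genes were called. Macrophage and monocyte genes summed to 61.3 and 66.1 CPM with mCDCs and 50.3 and 88.3 CPM with vehicle. Of 12 tested genes, 9 were highest in vehicle replicate 2, beside 29.4% of all genes tested. Cd68 was not among these 9, with 15.4 CPM in mCDC replicate 2 and 2.71 to 4.15 CPM in the other libraries. The part of vessel or blood content in the globin levels was not tested.

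**Figure D4:**
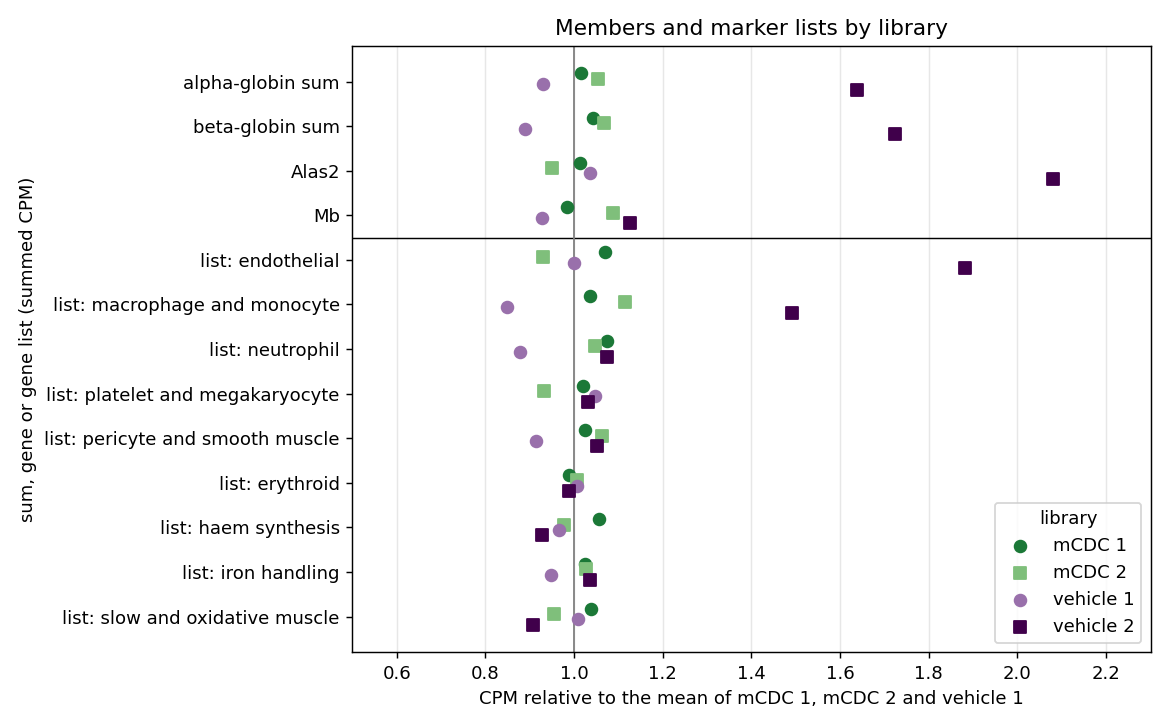
Level of the globin sums, Alas2, Mb and of 9 gene lists (summed CPM) in each library, relative to the mean of mCDC replicates 1 and 2 and vehicle replicate 1. Vehicle replicate 2 stands apart for both globin sums, Alas2, the endothelial list and the macrophage list, and lies among the other libraries or near them for the neutrophil, platelet, erythroid, pericyte, haem synthesis, iron and slow muscle lists.

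Of 20 tested genes on the slow and oxidative list, Fabp3, the fatty acid carrier of slow muscle, was called higher and Ppargc1a, the PGC-1alpha coactivator, lower, beside 1.26% and 2.74% of all genes tested, and the median log2 fold change was 0.14. Fabp3 had 2122 and 2130 CPM in mCDC replicates 1 and 2 and 1249 and 1231 CPM in vehicle replicates 1 and 2, a log2 fold change of 0.78. Ppargc1a had 35.7 and 29.6 CPM with mCDCs and 60.3 and 45.6 CPM with vehicle, a log2 fold change of -0.70, and 0 genes of the list were called lower without mCDC replicate 2 or without vehicle replicate 1. The log2 fold change of Myh7 was 0.01.

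The tested genes whose level over the 4 libraries was most like the members were found by the root mean square difference of centered log2 CPM. For the sum of all globins they were P2rx7, Renbp, Rasa2, Icam2 and Ebf3, with differences from 0.014 to 0.041. For Alas2 they were Ccm2l, Robo4, AI662270, Dock6 and Cxcl16, from 0.029 to 0.047, of which Robo4 and Ccm2l are endothelial genes. For Mb they were Sdccag3, Sfxn5, Trmt1, Rmi2 and Fyn, from 0.012 to 0.015. The points compared are the same 4 libraries, and these likenesses are descriptions.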

How the data were processed

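RNA of soleus muscle, 2 libraries per group, was sequenced as 75-base single-end reads. The authors mapped reads to a UCSC transcript set (Bowtie 2 version 2.1.0 and build mm10 in the submitters' processing notes) and deposited RSEM 1.2.15 expected counts per gene, without normalization; the version of the transcript set is not given in the sources used here. The methods name a broad-range kit and the labels a stranded mRNA kit.

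After rounding of the expected counts, low rows were removed by filterByExpr, libraries were scaled by TMM, and groups were compared by the quasi-likelihood F-test of edgeR 4.0.16 (legacy = FALSE; R 4.3.3), with Benjamini-Hochberg adjustment over 13652 genes. Sums of copies were fitted in place of their rows. Standard errors are the absolute log2 fold change over the square root of F. Named are all members, defining markers and called genes of 15 hand-written lists, and nearest profiles. Members and lists were chosen with earlier results of these data known. Lengths and sequences came from GENCODE M21 and RefSeq (GRCm38); 22750 of 24054 symbols were matched by their own and 931 by an older name. The per-kilobase values use the longest transcript, averaged over the matched copies (for beta, Hbb-bs and Hbb-bt). DESeq2 1.42.0 and other settings were alternatives, and the procedure was tested on simulated data. The deposited table held 0 columns of samples outside this comparison.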

Additional observations from a re-analysis of the deposited data

How the results depend on the processing

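Alternatives were other size factors, TMM without the member rows, other filters on low counts, other tests, unrounded counts, removal of a length and GC trend, the replicate number as a block, ratios of mean CPM, and leaving out each library; the leaving out of libraries for gene lists was chosen after seeing the data. The cause of each change was not tested. Hba-a2 was called lower in all of them where it has a test; fits that leave out a library hold a single library in one group, which is assumed to vary like the other group. With the length and GC trend removed, 2 members were called in place of 1, Alas2 passed at -0.69, and Mb was at -0.032.

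With each library left out, genes called higher ran from 112 to 397, genes called lower from 236 to 834, and members called from 1 to 7, the latter without vehicle replicate 1. The log2 fold changes ran from -0.66 (without vehicle replicate 1) to 0.15 (without vehicle replicate 2) for the alpha sum, likewise -0.70 to 0.24 for the beta sum, -1.08 to -0.079 (Alas2) and -0.11 to 0.16 (Mb). They ran from -0.62 to 0.26 (Hba-a1), -0.60 to 0.21 (Hbb-b1), -0.79 to 0.36 (Hbb-b2 and Hbb-bt) and -2.35 to 1.06 (Hbb-bs). The replicate numbers share only a number, with a correlation of -0.04 between deviations of same-numbered libraries. With the replicate block, 172 genes were called higher and 308 lower, and 1 member was called. The alpha and beta sums were then at -0.25 and -0.23, and Hbb-bs was at -0.83, from -1.49 without the block.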

Other observations

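Among the genes of the other lists, Slc2a1, the glucose transporter GLUT1, had 31.9 and 37.0 CPM in mCDC replicates 1 and 2 and 21.2 and 17.8 CPM in vehicle replicates 1 and 2, a log2 fold change of 0.82 that was 0.70 without vehicle replicate 2. It was the 1 gene called of 15 tested on the oxygen sensing list, beside 1.26% of all genes called higher and 2.74% lower. The median log2 fold change of that list was 0.07. Lcn2, a neutrophil granule protein also made by stressed tissue, had 0.72 and 1.10 CPM with mCDCs and 0.27 and 0.11 CPM with vehicle. Cd68, a macrophage lysosomal protein, was called higher through 1 library, with 4.13 and 15.4 CPM with mCDCs and 2.71 and 4.15 CPM with vehicle, while the growth factor receptor Csf1r was called lower, with 5.11 and 3.93 CPM against 5.57 and 8.84 CPM. The log2 fold change of Csf1r was -0.30 without vehicle replicate 2, under the fold that a call needs. Of the 12 macrophage and monocyte genes tested, 1 was called higher and 1 lower, beside 1.26% and 2.74% of all genes tested, and 0 were called with DESeq2. Called higher were 1 without mCDC replicate 1 and 0 without each other library, and called lower were 2 and 0 without mCDC replicates 1 and 2 and 5 and 1 without vehicle replicates 1 and 2. The median log2 fold change of that list was -0.16 with all libraries, -0.36 without vehicle replicate 1 and 0.32 without vehicle replicate 2.

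Of the 10 pericyte and smooth muscle genes tested, Rgs5 was called lower at a log2 fold change of -0.60 and Cspg4 higher at 0.63. Of all genes tested, 2.74% were called lower and 1.26% higher. On that list 1 gene was called higher without mCDC replicate 1 and 0 without each other library, and 1 and 0 were called lower without mCDC replicates 1 and 2 and 2 and 1 without vehicle replicates 1 and 2. Its median log2 fold change was -0.03 with all libraries, -0.19 without vehicle replicate 1 and 0.41 without vehicle replicate 2. On the fast muscle list, 0 of 12 genes were called with edgeR's quasi-likelihood test or DESeq2, and 0 had an unadjusted p under 0.05, but 4 were called lower without mCDC replicate 1 and 3 higher without mCDC replicate 2, each with a single mCDC library. The theta-globin gene Hbq1a had 5 counts over all libraries, all in mCDC muscles, and Hbq1b had 1.

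Hp, the haemoglobin-binding protein haptoglobin, was lowest in vehicle replicate 2, with 7.23 and 9.78 CPM under mCDCs, against 10.2 and 1.2 CPM in vehicle replicates 1 and 2, and it was not called.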
